A study of Mus musculus with 8 samples.

Results

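The miRNAs encoded inside the Hox gene clusters were followed here in small RNA libraries of mouse cardiomyocytes. They were mmu-miR-10a-5p, mmu-miR-10a-3p, mmu-miR-10b-5p, mmu-miR-10b-3p, mmu-miR-196a-5p, mmu-miR-196b-5p and mmu-miR-615-3p, named below without the species prefix. These 7 of the 697 mature miRNAs in the tables were chosen by name for where their genes lie, and the choice was made with earlier results of these data known. The 8 libraries came from male mice that received either a sham operation (4 libraries, Sham1 to Sham4) or transverse aortic constriction, a narrowing of the aorta that overloads the left ventricle with pressure (TAC, 4 libraries, TAC1 to TAC4). The mice were operated at 2 months of age, and the hearts were digested by Langendorff perfusion, which frees the cardiomyocytes. The time of collection is given as 14 weeks after surgery in one place of the methods and as an age of 14 weeks in another, and the sample labels give neither. Each library held part of the cardiomyocytes of 1 mouse, no allele and no treatment beyond the operation was named for either group, and the strain was not given in the sources used here.

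The miRNA counts summed to between 4005668 and 5392576 in the sham libraries and between 5507169 and 7798943 in the TAC libraries. The 5 cardiomyocyte markers, among them miR-1a-3p and miR-208a-3p, took 16.1% to 19.8% of the counts in sham and 19.4% to 24.6% in TAC, and each was detected. Markers of endothelial cells, of fibroblasts and smooth muscle and of other tissues were also present. The libraries Sham2 and TAC4 stood apart from the others of their group, both in these miRNAs and in markers of some other tissues, and the main results are also given without them.

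The Hox clusters hold the homeodomain transcription factors that set position along the body axis, and their genes lie in the order in which they are used from head to tail. The miR-10 genes sit next to the Hox4 genes and the miR-196 genes next to the Hox9 genes, and both miRNAs are known to repress Hox messenger RNAs. A mature miRNA recognises its targets mainly through its seed, the bases from position 2 to position 8 counted from the 5′ end, and the strand kept from the hairpin precursor is either its 5p or its 3p arm. In adult tissues miR-10a and miR-10b are known from endothelial cells, and miR-196 from posterior parts of the body.

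The sequences below show which members could share targets and which can be told apart only by a single base. They are RefSeq's sequences on GRCm38.p6, written 5′ to 3′ with the seed in capitals, and all 7 members were found there.
miR-10a-5p: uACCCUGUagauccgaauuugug
miR-10b-5p: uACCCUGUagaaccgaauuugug
miR-10a-3p: cAAAUUCGuaucuaggggaaua
miR-10b-3p: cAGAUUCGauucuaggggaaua
miR-196a-5p: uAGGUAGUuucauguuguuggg
miR-196b-5p: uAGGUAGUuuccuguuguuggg
miR-615-3p: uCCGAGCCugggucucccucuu

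miR-10a-5p and miR-10b-5p shared the seed ACCCUGU and differed at 1 of 23 bases (U12A, positions counted from the 5′ end, the base of miR-10a-5p first). miR-196a-5p and miR-196b-5p shared the seed AGGUAGU and differed at 1 of 22 bases (A12C, the base of miR-196a-5p first). Among the 1679 mature miRNA names of the RefSeq table, no other miRNA carried either seed. The letters AGGUAGU also stand in let-7a-5p, but from position 3 to position 9, outside the frame of a shared seed. The 3p arms differed at 3 of 22 bases, and 1 of these changes lay in the seed (A3G, with U9A and A10U behind it, the base of miR-10a-3p first), so miR-10a-3p and miR-10b-3p had different seeds. Since how the authors assigned tags that match several miRNAs was not given in the sources used here, counts of the pairs that differ by a single base are uncertain to the extent that tags were cut short before the differing base or misread there.

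The genes lie in all 4 Hox clusters. In the GENCODE vM21 annotation of GRCm38, the miR-10a hairpin (chr11:96317165-96317274, plus strand) overlapped no other gene and lay between Hoxb5 and Hoxb4, 993 bases from Hoxb4. The miR-10b hairpin (chr2:74726070-74726137, plus strand) lay in introns of Hoxd3 and Hoxd4 transcripts. Mature miR-196a-5p can come from either of 2 hairpins, one between Hoxb13 and Hoxb9 that overlapped no gene (chr11:96265164-96265265, plus strand) and one in an intron of a Hoxc5 transcript, 1457 bases from Hoxc10 (chr15:102973350-102973434, plus strand). Its counts therefore cannot be assigned to the Hoxb or the Hoxc cluster. The miR-196b hairpin (chr6:52230081-52230165, minus strand) overlapped an exon of at least 1 Hoxa9 transcript, and that of miR-615 (chr15:103014910-103015001, plus strand) lay in an intron of Hoxc5.

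Cardiomyocyte libraries held the 2 miR-10 5p arms at levels far above those of the other members. By total count over the 8 libraries, miR-10a-5p ranked 45 and miR-10b-5p 53 among the 697 miRNAs, with means of 11141 and 8461 counts per library. The remaining members had means of 58.0 counts (miR-10b-3p, rank 260), 36.9 (miR-196a-5p, rank 288), 17.9 (miR-10a-3p, rank 338), 14.9 (miR-196b-5p, rank 357) and 5.62 (miR-615-3p, rank 462). None of the 7 was at 0 in any library. In CPM, the count scaled to a common library total, miR-10a-5p exceeded miR-10b-5p in 6 of 8 libraries, Sham2 and TAC4 being the exceptions. Further down, miR-10b-3p exceeded miR-196a-5p in 7 of 8 libraries and miR-196a-5p exceeded miR-10a-3p in 8 of 8. The order of miR-10a-3p over miR-196b-5p held in 6 of 8 libraries, so these neighbours did not separate beyond their spread. miR-196b-5p exceeded miR-615-3p in 7 libraries and equalled it in the eighth, Sham4. Only miR-10a-5p and miR-10b-5p had a mean above 100 counts and entered the main test over 223 miRNAs.

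**Figure D1:**
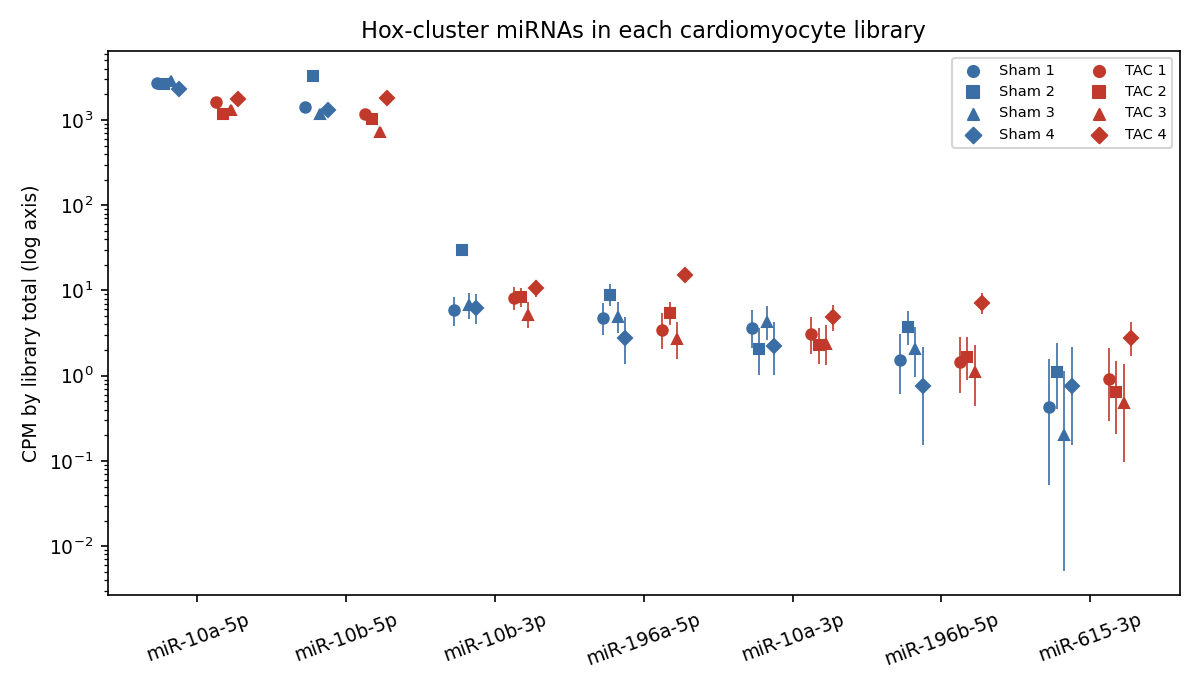
CPM by library total (log axis) of the 7 Hox-cluster miRNAs in the 4 sham (blue) and 4 TAC (red) libraries, with exact 95% binomial intervals that cover counting error only. The miR-10 5p arms lie between 723 and 3278 CPM and the other members at or below 29.5 CPM, and Sham2 and TAC4 are the upper points of most of the low members.

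The 7 members together took 0.445% ± 0.102 of the miRNA counts of the sham libraries and 0.268% ± 0.0710 of those of the TAC libraries (SD, n = 4). By library, the share was 0.413%, 0.595%, 0.403% and 0.368% in Sham1 to Sham4 and 0.284%, 0.223%, 0.205% and 0.362% in TAC1 to TAC4. The shares of the TAC libraries were all below those of the sham libraries, although TAC4 came within 0.01 percentage points of Sham4. This order holds by library total. With the reference scaling explained below, the TAC mean was instead higher by 0.0554 percentage points. That difference gave p = 0.371 in a two-sided exact permutation test, with the scaling factor computed anew for each arrangement. miR-10a-5p made up 44.1% to 70.4% of the members' counts and miR-10b-5p 29.1% to 55.1%, so the share describes these miRNAs rather than the other 5.

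miR-10a-5p, from the Hoxb cluster, was the most abundant member. Its level was 2684, 2624, 2839 and 2342 CPM in Sham1 to Sham4 and 1634, 1180, 1315 and 1759 CPM in TAC1 to TAC4. Every TAC library was below every sham library, as for 27.4% of the 223 miRNAs tested. The mean was 2622 ± 208 CPM over the sham libraries and 1472 ± 270 CPM over the TAC libraries (SD, n = 4), a ratio of 0.561. In bulk samples such as these, fewer cells of a type and less RNA per cell cannot be told apart.

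The direction of miR-10a-5p depended on the scaling. The study scaled its libraries to 2 miRNAs that it reported as unaltered and as checked by quantitative PCR. Between the TAC and sham means of CPM, the ratio was 0.576 for one of them, miR-126a-3p, and 0.5001 for the other, miR-19b-3p. Dividing the TAC values by the geometric mean of the ratios, 0.537, raised every TAC value by 0.90 on the log2 scale. On that scale miR-10a-5p was at 3043, 2199, 2449 and 3277 CPM in TAC1 to TAC4, a mean of 2742 ± 502 (SD, n = 4) that overlapped the sham libraries. With this reference scaling its log2 fold change was 0.06 (SE 0.15, adjusted p = 0.711, edgeR's quasi-likelihood test with Benjamini-Hochberg adjustment over 223 miRNAs). With library totals it was -0.83 (SE 0.15, adjusted p = 0.00502, edgeR), and with TMM, which centres the bulk of the miRNAs, -0.62 (SE 0.14, adjusted p = 0.0196, edgeR). With each library left out in turn, the adjusted p was below 0.05 in 8 of 8 fits by library totals (0.00511 to 0.0208) and in 5 of 8 by TMM (0.0151 to 0.0601). Leaving out both Sham2 and TAC4 gave a log2 fold change of -0.06 with the reference scaling (adjusted p = 0.773), -0.93 with library totals (adjusted p = 0.00979) and -0.66 with TMM (adjusted p = 0.0232), all by edgeR. With TMM over all 695 miRNAs with at least 1 count it was -0.49 (adjusted p = 0.0927, edgeR), no longer past the threshold.

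A miRNA was called when its adjusted p was below 0.05 and its fold change exceeded 1.7. With the reference scaling neither of the 2 members tested was called, in either direction, beside 36.8% of the 223 miRNAs that were higher in TAC by this rule and 0.897% that were lower. By library totals miR-10a-5p was called lower, as were 10.3% of the miRNAs, and under TMM its fold fell short of 1.7, where 4.48% were called lower. The call by library totals held in 7 of 8 fits with 1 library left out, the fold falling below 1.7 without TAC2 (log2 fold change -0.74), and under TMM miR-10a-5p was called in 0 of 8. A scaling factor moves all miRNAs alike and so leaves their order nearly as it was. In that order the log2 fold change of miR-10a-5p was the 28th lowest of 223, 0.54 below the median of all tested miRNAs.

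The endothelial markers miR-126a-3p and miR-126a-5p moved in the same direction by library total. Their sum was 49248 to 72051 CPM in sham and 29274 to 34557 CPM in TAC, and miR-126a-3p is itself 1 of the 2 reference miRNAs. The liver and gut markers (1568 to 1832 CPM in sham, 1223 to 1519 CPM in TAC) were also lower in every TAC library. So were the neuron markers (19.1 to 34.1 CPM in sham, 14.7 to 16.9 CPM in TAC). By library totals only 25.6% of the 223 miRNAs tested had a log2 fold change above 0. The part of endothelial cells in the values of miR-10a-5p was not tested.

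miR-10b-5p, from the Hoxd cluster, varied more between mice than miR-10a-5p did. Its level was 1428, 3278, 1174 and 1327 CPM in Sham1 to Sham4 and 1191, 1029, 723 and 1821 CPM in TAC1 to TAC4. Sham2 was the highest library and TAC4 the second highest, and the groups overlapped. The SD of log2 CPM of miR-10b-5p was 0.67 in sham and 0.55 in TAC, the 11th and the 18th largest of 223 miRNAs, against medians of 0.25 and 0.22. For miR-10a-5p the SD was 0.12 in sham (the 196th largest) and 0.27 in TAC (the 87th).

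miR-10b-5p did not differ between the groups beyond this spread. Its log2 fold change was 0.30 with the reference scaling (SE 0.37, adjusted p = 0.478), -0.38 with TMM (SE 0.36, adjusted p = 0.506) and -0.60 with library totals (SE 0.37, adjusted p = 0.242), all by edgeR's quasi-likelihood test. Single libraries moved the value: with the reference scaling the log2 fold change was 0.68 without Sham2 (adjusted p = 0.0631, edgeR), 0.06 without Sham3 (adjusted p = 0.902) and 0.075 without TAC4 (adjusted p = 0.865). It was 0.45 without both Sham2 and TAC4 (adjusted p = 0.0794, edgeR).

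Because miR-10a-5p and miR-10b-5p have the same seed, their ratio within a library shows how the pool of that seed was divided between the Hoxb and Hoxd loci, and it does not depend on any scaling. miR-10b-5p was at 0.532, 1.25, 0.414 and 0.567 times the count of miR-10a-5p in Sham1 to Sham4 and at 0.729, 0.872, 0.550 and 1.04 times in TAC1 to TAC4. The groups overlapped, and Sham2 and TAC4 were the only libraries with more miR-10b-5p than miR-10a-5p. The mean log2 ratio was higher in TAC by 0.30 (p = 0.486, two-sided exact permutation test over 70 arrangements; adjusted p = 0.486 over the 4 ratios tested). With 1 library left out the difference ranged from 0.10 without Sham3 (p = 0.857) to 0.63 without Sham2 (p = 0.0857, exact permutation tests), being 0.17 without TAC4 (p = 0.771), and without both Sham2 and TAC4 it was 0.50 (p = 0.2, exact permutation test).

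The ratio of the arms of 1 hairpin is likewise free of the scaling. miR-10a-5p outnumbered its partner arm miR-10a-3p by 731, 1286, 663 and 1042 times in Sham1 to Sham4 and by 529, 511, 556 and 363 times in TAC1 to TAC4. Every TAC library was below every sham library, as for 8.18% of the 110 hairpins with both arms above a mean of 10 counts. The mean log2 ratio was 9.76 ± 0.43 over the sham libraries and 8.88 ± 0.27 over the TAC libraries (SD, n = 4), a difference of -0.88 that was the 4th lowest of the 110 hairpins, whose median was -0.09. The exact permutation test gave p = 0.0286, the smallest that 70 arrangements allow, and 0.114 after adjustment over the 4 ratios, so the difference did not pass the correction. The 3p arm rested on 9 to 35 counts per library. Without both Sham2 and TAC4 the difference was -0.57 (p = 0.1, exact permutation test, the smallest possible with 3 against 3).

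The miR-10b hairpin kept more of its 3p arm. Here the 5p arm was 245, 111, 175 and 213 times as frequent as the 3p arm in Sham1 to Sham4 and 146, 124, 139 and 171 times in TAC1 to TAC4. The lowest ratio was that of Sham2, a sham library, and the groups overlapped. The mean log2 ratio differed by -0.30 between TAC and sham (p = 0.314, exact permutation test; adjusted p = 0.419), and it ranked 34th lowest of the 110 hairpins. With 1 library left out it ranged from -0.53 without Sham2 (p = 0.0571) to -0.15 without Sham1 (p = 0.6, exact permutation tests), and without both Sham2 and TAC4 it was -0.61 (p = 0.1, exact permutation test).

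**Figure D2:**
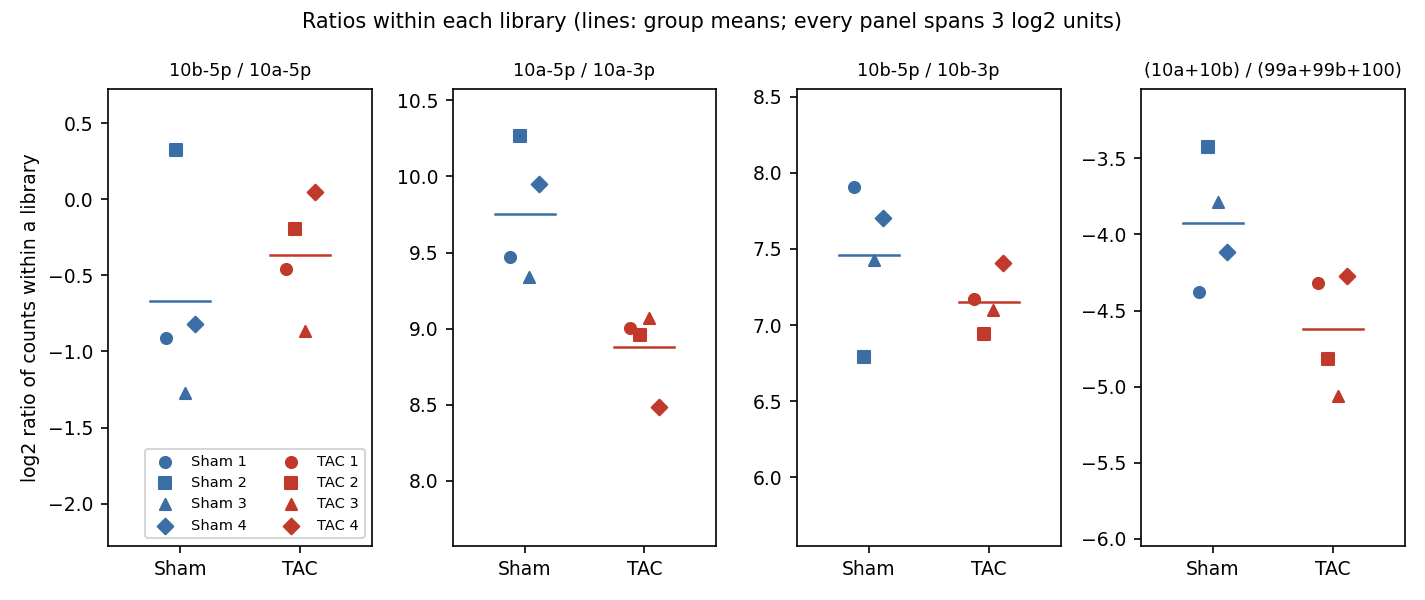
Log2 ratios of counts within each library for miR-10b-5p to miR-10a-5p, the arms of miR-10a, the arms of miR-10b, and miR-10a-5p plus miR-10b-5p to the miR-99/100 5p arms, with 1 point per library and a line at each group mean; every panel spans 3 log2 units. The groups separate in the miR-10a arm ratio (means 9.76 in sham and 8.88 in TAC) and overlap in the other 3 panels.

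miR-10a-3p itself was at 3.67, 2.04, 4.28 and 2.25 CPM in Sham1 to Sham4 and at 3.09, 2.31, 2.37 and 4.85 CPM in TAC1 to TAC4. By library total the groups overlapped, and with the reference scaling every TAC library (4.30 to 9.03 CPM) was above every sham library, as for 25.5% of the 695 miRNAs with at least 1 count. miR-10b-3p was at 5.83, 29.5, 6.73 and 6.24 CPM in Sham1 to Sham4 and at 8.17, 8.33, 5.20 and 10.7 CPM in TAC1 to TAC4. Sham2 thus held 159 of its counts where the other sham libraries held 25 to 33.

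The miR-196 miRNAs, which are known to repress Hox genes of the posterior body such as Hoxb8, were rare in these cells. miR-196a-5p had 22, 48, 24 and 11 counts in Sham1 to Sham4 and 19, 43, 17 and 111 counts in TAC1 to TAC4. This came to 4.75, 8.90, 4.89 and 2.75 CPM in sham and 3.45, 5.51, 2.68 and 15.4 CPM in TAC. TAC4 was the highest library and Sham2 the second, and the other 6 libraries lay between 2.68 and 5.51 CPM.

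miR-196b-5p had 7, 20, 10 and 3 counts in Sham1 to Sham4 and 8, 13, 7 and 51 counts in TAC1 to TAC4. In CPM these were 1.51, 3.71, 2.04 and 0.749 in sham and 1.45, 1.67, 1.10 and 7.06 in TAC, again highest in TAC4 and next in Sham2. The exact 95% interval of TAC4, 5.26 to 9.28 CPM, did not reach that of any other TAC library, the highest of which ended at 2.86 CPM. Such intervals cover counting error only.

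No difference between libraries in the division of the miR-196 seed between its members was seen beyond counting error. With so few counts a difference could be missed, and the division was not tested. miR-196b-5p made up 24.1%, 29.4%, 29.4% and 21.4% of the summed miR-196a-5p and miR-196b-5p counts in Sham1 to Sham4 and 29.6%, 23.2%, 29.2% and 31.5% in TAC1 to TAC4. The exact 95% intervals of all 8 libraries overlapped, the narrowest being 24.4% to 39.2% in TAC4 and the widest 4.66% to 50.8% in Sham4. In TAC4, where both miRNAs were highest, the division stayed within the intervals of the other libraries.

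miR-615-3p, from the Hoxc5 intron, had 2, 6, 1 and 3 counts in Sham1 to Sham4 and 5, 5, 3 and 20 counts in TAC1 to TAC4. Its level was 0.432, 1.11, 0.204 and 0.749 CPM in sham and 0.908, 0.641, 0.473 and 2.77 CPM in TAC. As for the miR-196 miRNAs, TAC4 was highest and Sham2 second. The exact 95% interval ran from 1.69 to 4.28 CPM in TAC4 and from 0.00516 to 1.14 CPM in Sham3. That of TAC4 overlapped the intervals of Sham2 (0.408 to 2.42 CPM), Sham4 (0.154 to 2.19 CPM) and TAC1 (0.295 to 2.12 CPM). It did not overlap those of Sham1, Sham3, TAC2 and TAC3.

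None of the 5 low-count members passed the test between TAC and sham. In a fit over the 695 miRNAs with at least 1 count and with the reference scaling, their log2 fold changes were 0.93 (miR-10a-3p, SE 0.40), 0.31 (miR-10b-3p, SE 0.47), 1.23 (miR-196a-5p, SE 0.50), 1.36 (miR-196b-5p, SE 0.60) and 1.79 (miR-615-3p, SE 0.71). The adjusted p-values of edgeR lay between 0.0781 and 0.673, so that 0 of 5 were below 0.05, where 24.6% of the 695 miRNAs were below it and higher in TAC. At an unadjusted p below 0.05 the count was 4 of 5 in edgeR, against 36.4% of the 695, and 3 of 5 in DESeq2, which likewise called 0 after adjustment. The unadjusted count in edgeR fell to 0 of 5 with TMM, and to 1 of 5, miR-10b-3p, with the reference scaling when both Sham2 and TAC4 were left out. In the latter fit 33.4% of the 692 miRNAs had an unadjusted p below 0.05 and were higher in TAC. The shares of the 695 miRNAs in the DESeq2 fit and in the TMM fit were not computed, so those counts have no background beside them. By library totals the log2 fold changes were 0.04, -0.59, 0.34, 0.48 and 0.92 in the same order, and 0 of 5 had an unadjusted p below 0.05 in edgeR. At that level 2.88% of the 695 miRNAs were higher in TAC and 17.1% lower.

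The outcome for miR-10b-3p and miR-196a-5p turned on single libraries. Without Sham2 the log2 fold change of miR-10b-3p with the reference scaling was 1.18 (SE 0.34, adjusted p = 0.0219, edgeR), and without both Sham2 and TAC4 it was 1.07 (SE 0.36, adjusted p = 0.0272, edgeR), past the threshold in either case. Without TAC3 the value of miR-196a-5p was 1.48 (adjusted p = 0.0379, edgeR), whereas without TAC4 it was 0.49 (adjusted p = 0.396, edgeR). Without both Sham2 and TAC4 the log2 fold change was 0.45 for miR-10a-3p, 0.78 for miR-196a-5p, 0.82 for miR-196b-5p and 1.38 for miR-615-3p (adjusted p from 0.197 to 0.502, edgeR). For miR-196b-5p leaving out TAC4 brought the log2 fold change from 1.36 to 0.41, and for miR-615-3p from 1.79 to 1.01 (adjusted p = 0.606 and 0.387, edgeR).

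Taking the 7 members as a list, the median log2 fold change was 0.93 with the reference scaling, against 0.60 over all 695 miRNAs, and 7 of 7 values were above 0, as were 81.0% of all miRNAs. With TMM over the same miRNAs the medians were 0.40 and 0.05, and with library totals 0.04 and -0.29, each with 4 of 7 values above 0, beside 53.5% and 34.1% of all miRNAs. When both Sham2 and TAC4 were left out the counts were 6, 4 and 2 of 7, beside 79.2%, 53.9% and 35.8% of all miRNAs, and the medians of the members 0.78, 0.24 and -0.086. With all libraries, the miR-10 5p arms and miR-10b-3p lay below the median of all miRNAs under the 3 scalings, and miR-10a-3p, miR-196a-5p, miR-196b-5p and miR-615-3p above it. Without both Sham2 and TAC4 the 3p arms changed sides: miR-10b-3p, at 1.07, 0.51 and 0.21 with the reference scaling, TMM and library totals, was then above the medians of 0.62, 0.06 and -0.24, and miR-10a-3p, at 0.45, -0.096 and -0.41, below them.

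**Figure D3:**
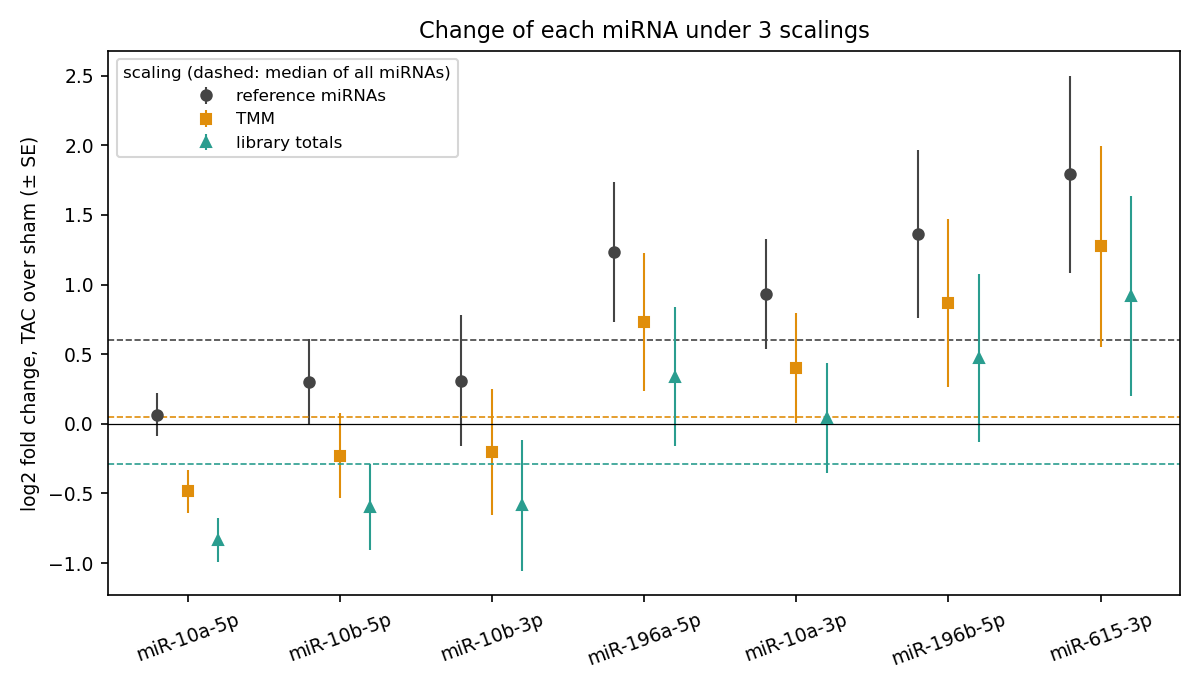
Log2 fold change of TAC over sham (± SE, edgeR) of the 7 members under 3 scalings, from fits over the 695 miRNAs with at least 1 count; the dashed lines mark the median of all miRNAs under each scaling (0.60, 0.05 and -0.29). The scaling moves all members together, and miR-10a-5p, at 0.06, -0.49 and -0.83, stays below the median of all miRNAs.

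Sham2 and TAC4 were the 2 highest libraries by CPM for 5 of the 7 members: miR-10b-5p, miR-10b-3p, miR-196a-5p, miR-196b-5p and miR-615-3p. The same held for 9.42% of the 223 miRNAs with a mean above 100 counts and for 6.78% of the 472 miRNAs with lower means. These libraries were singled out after the members' values were seen, so the comparison is a description and not a test. The arms of miR-10b also come from 1 hairpin, so the 5 members are not independent. The exceptions were both arms of miR-10a. Against the mean of the other 3 sham libraries, Sham2 held 2.50 times as much miR-10b-5p, 4.71 times as much miR-10b-3p, 2.16 times as much miR-196a-5p, 2.59 times as much miR-196b-5p and 2.41 times as much miR-615-3p. It held 1.00 times as much miR-10a-5p and 0.60 times as much miR-10a-3p.

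TAC4 differed most from its group in the miR-196 miRNAs and miR-615-3p. Against the mean of the other 3 TAC libraries it held 3.96 times as much miR-196a-5p, 5.02 times as much miR-196b-5p and 4.11 times as much miR-615-3p. The ratios were 1.86 for miR-10b-5p, 1.47 for miR-10b-3p, 1.28 for miR-10a-5p and 1.87 for miR-10a-3p. The libraries thus differed in pattern: miR-10b-3p had the highest ratio in Sham2 and miR-196b-5p in TAC4.

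Markers of some other tissues were higher in these libraries, while those of others were not. In Sham2 the skeletal muscle marker miR-206-3p stood at 1390 CPM, where the other sham libraries had 199 to 240 CPM, and the 3 markers of pancreatic acinar cells summed to 33.0 CPM against 14.1 to 20.7. In TAC4 the 11 epithelial markers, among them the miR-200 family, summed to 1599 CPM against 293 to 394 in the other TAC libraries, and 10 of the 11 were at their highest TAC level there. The acinar markers summed to 88.9 CPM in TAC4 against 15.3 to 27.2, while miR-206-3p, at 243 CPM, lay within the 184 to 251 CPM of its group. The epithelial sum of Sham2, 502 CPM, was also above the 320 to 409 CPM of its group, with 8 of 11 markers highest there. The cardiomyocyte markers were at 0.934 times the mean of the other sham libraries in Sham2 and at 1.15 times that of the other TAC libraries in TAC4, and those of fibroblasts and smooth muscle at 1.00 and 1.12 times. By the same ratios, in Sham2 and TAC4, the liver and gut markers were at 0.952 and 0.929 and the neuron markers at 0.643 and 1.09. The erythroid markers were at 0.941 and 1.99, although their sum in TAC4, 526 CPM, lay within the 43.8 to 550 CPM of the other TAC libraries. The endothelial markers were at 1.13 and 0.860. The part of other tissues in the values of the Hox-cluster miRNAs was not tested.

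**Figure D4:**
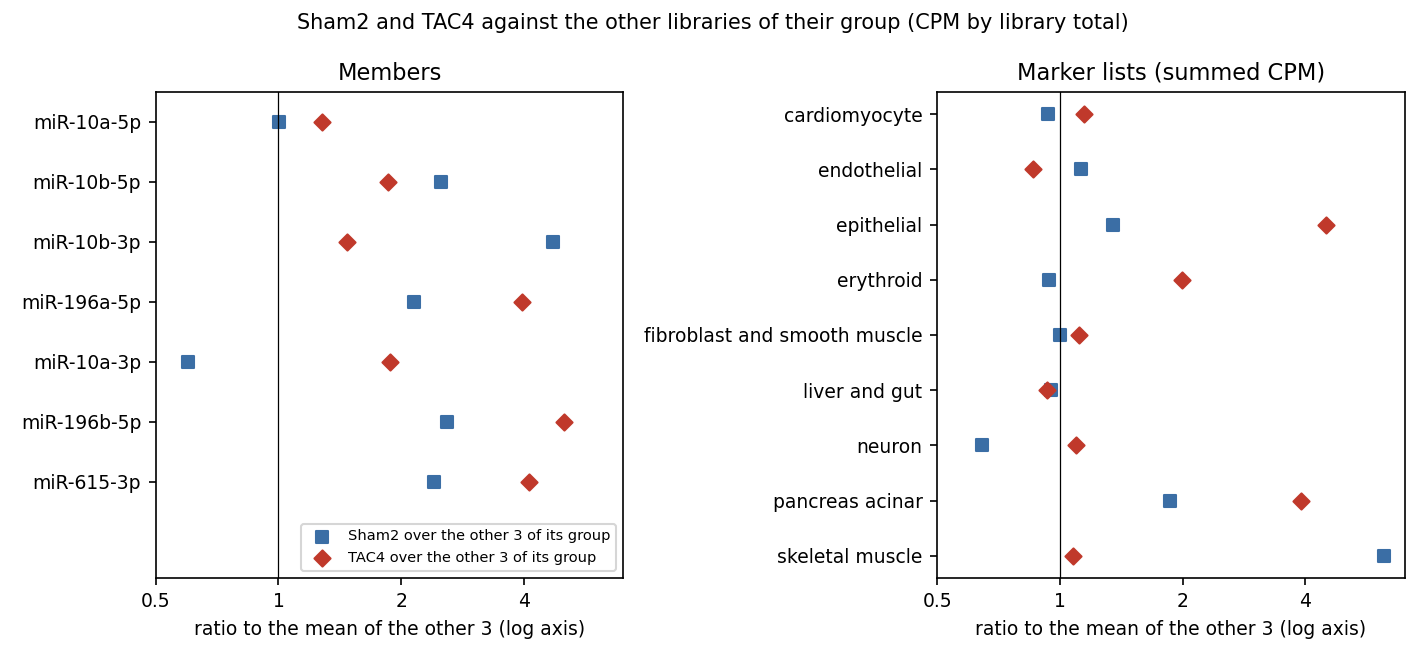
Ratio of the CPM of Sham2 (blue squares) and TAC4 (red diamonds) to the mean of the other 3 libraries of the same group, for the 7 members (left) and for the summed markers of 9 cell types or tissues (right), on a log axis. Sham2 stands highest in miR-10b-3p (4.71) and the skeletal muscle marker (6.24), and TAC4 in miR-196b-5p (5.02) and the epithelial markers (4.49).

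miR-99a, miR-99b and miR-100 are the nearest relatives of miR-10 by sequence and lie outside the Hox clusters. Their 5p arms share the seed ACCCGUA with each other but not with miR-10.
miR-99a-5p: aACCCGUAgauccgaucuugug
miR-99b-5p: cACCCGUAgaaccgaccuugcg
miR-100-5p: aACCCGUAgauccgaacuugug

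These relatives were more abundant than the Hox-cluster members, miR-99a-5p reaching 56693 ± 11980 CPM over the sham libraries and 55972 ± 5299 CPM over the TAC libraries (SD, n = 4). The summed miR-10 5p arms came to 0.0481, 0.0931, 0.0723 and 0.0577 times the summed miR-99a, miR-99b and miR-100 5p arms in Sham1 to Sham4 and to 0.050, 0.0355, 0.0299 and 0.0517 times in TAC1 to TAC4. Sham1 lay within the TAC values, so the groups overlapped. The mean log2 ratio was lower in TAC by 0.69 (-0.69, p = 0.0857, exact permutation test; adjusted p = 0.171), and it was -0.84 without Sham1 (p = 0.0286, the smallest this exact permutation test can give). With any other library left out p lay between 0.0857 and 0.171, the difference being -0.52 without Sham2 (exact permutation tests). With the reference scaling the log2 fold changes were 0.88 for miR-99a-5p (adjusted p = 0.0010), 0.32 for miR-99b-5p (adjusted p = 0.0555) and 0.76 for miR-100-5p (adjusted p = 0.00334), all by edgeR. Those of miR-10a-5p and miR-10b-5p were 0.06 and 0.30. At an adjusted p below 0.05, 63.7% of the 223 miRNAs were higher in TAC with this scaling. For miR-99a-5p, miR-99b-5p and miR-100-5p, TMM gave 0.19, -0.36 and 0.07 (adjusted p = 0.415, 0.0794 and 0.789, edgeR). Library totals gave -0.02, -0.57 and -0.14 (adjusted p = 0.919, 0.0154 and 0.539, edgeR), where 20.6% of the 223 were lower at that level.

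The miRNAs whose levels followed the miR-10 5p arms most closely differed between the arms. Over the 8 libraries, on log2(CPM + 1) by library total, the miRNAs most like miR-10a-5p were miR-342-3p (Pearson r = 0.975, Spearman rho = 0.976), miR-19b-3p (0.943 and 0.881), miR-92a-3p (0.943 and 0.833) and miR-497a-5p (0.937 and 0.905). Without the 2 libraries farthest from the median, TAC2 and TAC3, r stayed between 0.895 and 0.973 for these 4. miR-19b-3p is 1 of the 2 reference miRNAs. The points share the group difference between sham and TAC, and on deviations from the group means only miR-342-3p was again among the 4 nearest (r = 0.824, and 0.732 without TAC2 and TAC4).

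For miR-10b-5p the nearest were miR-409-5p (r = 0.878, rho = 0.810), miR-136-3p (0.869 and 0.571), miR-206-3p (0.846 and 0.524) and miR-193b-3p (0.839 and 0.786). Without Sham2 and TAC3, r was 0.870 for miR-409-5p and 0.741 for miR-136-3p, but 0.238 for miR-193b-3p and -0.05 for miR-206-3p, the skeletal muscle marker, so that the last 2 rested on those libraries. On deviations from the group means, r without Sham2 and TAC4 was 0.199 for miR-409-5p and 0.165 for miR-136-3p, so the first 2 rested on Sham2 and TAC4 by that measure. Also among the 4 nearest on deviations were miR-499-3p (r = 0.877) and the pancreatic acinar marker miR-216a-5p (r = 0.859). Without Sham2 and TAC4 their r was 0.243 and 0.757, so that of miR-216a-5p did not rest on those libraries alone. No miRNA was among the 4 nearest of both miR-10 5p arms.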

How the data were processed

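The deposited tables hold whole-number tag counts per mature miRNA for 8 libraries, without normalization; per the labels each is 1 mouse sample of the sham or TAC group. The submitters' processing notes name mm10 and StringTie 1.3.1, and the authors cleaned reads to tags before counting. The aligner, the miRNA reference version and the handling of tags that match several miRNAs were not given in the sources used here. No library was found to be deposited in duplicate.

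Groups were compared by edgeR 4.0.16 (glmQLFit and glmQLFTest, R 4.3.3) with a group term alone, over miRNAs whose mean exceeded 100 counts, and p-values were adjusted by Benjamini-Hochberg. Library sizes were the miRNA totals, times 0.537 in TAC libraries, which is how far miR-19b-3p and miR-126a-3p fell in CPM (geometric mean). Standard errors were derived from the log2 fold change and edgeR's F. Members with fewer counts took their values from a fit without the filter. Ratios within a library (pseudocount 0.5) were tested by exact permutation, two-sided, over the 70 arrangements of the libraries. Alternatives were TMM, library totals, other reference factors, DESeq2 1.42.0, other filters, a replicate block and leaving out libraries; leaving out both Sham2 and TAC4, alone or with another scaling, leaving out single libraries with TMM or library totals, and the comparison with the arm ratios of all hairpins were chosen after seeing the data. The edgeR step was tested on simulated data, with TMM scaling only.

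The named miRNAs were the 7 members, the reference miRNAs, the miR-99 and miR-100 5p arms, marker lists and, for each miR-10 5p arm, the 4 miRNAs with the highest Pearson r. The members and lists were chosen with earlier results of these data known. The other arms of the miR-196 and miR-615 hairpins were not analysed here. Python 3.11.15 with pandas 2.3.3 and scipy 1.17.1 made the remaining values.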

Additional observations from a re-analysis of the deposited data

Results flagged for a closer look

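In groups of 4 libraries, Dixon's ratio compares the gap between the most extreme library and its neighbour with the range of the group. Of 24 groups looked at, 3 exceeded its 95% critical value. Chance alone exceeds it in about 1 of 20 groups, but the groups looked at are not independent of each other. The arms miR-10b-5p and miR-10b-3p, for instance, come from 1 hairpin, so no excess over chance is read from the count. miR-10b-5p in Sham2, at 3278 CPM, stood above the other sham libraries with a ratio of 0.880. miR-10b-3p in Sham2, at 29.5 CPM, did so with a ratio of 0.962. miR-196b-5p in TAC4, at 7.06 CPM, stood above the other TAC libraries with a ratio of 0.906. Markers of skeletal muscle in Sham2 and of epithelium in TAC4 were high in the same libraries, and their part was not tested.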

How the results depend on the processing

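The direction of the miR-10 5p arms was set by the scaling. For miR-10a-5p the log2 fold change, 0.06 with the reference scaling, was -0.62 with TMM, -0.83 with library totals, -0.57 with DESeq2's own size factors (adjusted p = 0.00771) and -0.038 with miR-126a-3p alone as reference. Leaving out 1 library in turn gave -0.018 to 0.19 with the reference scaling, -0.69 to -0.55 with TMM and -0.93 to -0.74 with library totals. Without both Sham2 and TAC4 the values were -0.060, -0.66 and -0.93. For miR-10b-5p, 0.30 became -0.38 with TMM, -0.60 with library totals and -0.33 with DESeq2's own size factors. Leaving out 1 library in turn gave 0.06 to 0.68 with the reference scaling, -0.63 to 0.08 with TMM and -0.88 to -0.14 with library totals. Without both Sham2 and TAC4 it was -0.16 with TMM and -0.42 with library totals. The shifts between scalings follow from the factor itself, which moves all miRNAs alike.

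By library totals 1 member was called, miR-10a-5p, as also without both Sham2 and TAC4 and in 7 of 8 fits with 1 library left out. With TMM, with DESeq2 and with each of the reference factors 0 members were called. Among the low-count members the count past an adjusted p of 0.05 rose from 0 to 1 without Sham2, without TAC3 and without both Sham2 and TAC4, and leaving out 1 library gave 0 to 1. Without both libraries, 22% of the 692 miRNAs in the fit were past it and higher in TAC. The shares of all miRNAs without Sham2 alone or without TAC3 alone were not computed. miR-10b-3p was at -0.20 with TMM and -0.59 with library totals. Without both libraries and with library totals miR-10a-3p was at -0.41, miR-196a-5p at -0.086 and miR-196b-5p at -0.041, and with TMM miR-10a-3p was at -0.096. The miR-10a arm difference, -0.88, ranged from -1.01 to -0.71 with 1 library left out, with exact p from 0.0286 to 0.0571, and was -0.57 without both libraries. The miR-10 to miR-99/100 difference ranged from -0.84 to -0.52. The difference in the share of counts on the members, in percentage points, ranged from -0.207 to -0.126 with 1 library left out, was -0.157 without both libraries and 0.0554 with the reference scaling. The causes of the changes on leaving out libraries were not tested.

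Libraries of the same replicate number did not deviate together: the correlations of their deviations from the group means were 0.17, -0.37, 0.31 and -0.22, so the numbers were not used as pairs. With the replicate block the log2 fold changes were 0.05 for miR-10a-5p and 0.36 for miR-10b-5p, and 0 members were called, as without it. The blocked test of the miR-10a arm difference, -0.88, gave p = 0.125 in an exact sign-flip test, the smallest that 4 pairs allow. Depth limits the members with few counts most, above all miR-615-3p with 1 to 20 counts per library.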
